A study of Homo sapiens with 15 samples.

Results

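The comparison set bone marrow of mice that received elesclomol together with bortezomib (combination, 3 libraries) against bone marrow of mice that received bortezomib without elesclomol (bortezomib, 3 libraries). These 6 libraries were chosen by their labels from the 15 of the series. All mice were SCID-beige animals, which have severely impaired lymphocytes, injected by vein with MM.1S cells, an established human multiple myeloma line that here carried genes for luciferase and a green fluorescent protein. Both groups received bortezomib at 0.25 mg/kg into the peritoneum weekly, and the combination group also received elesclomol at 25 mg/kg under the skin. The labels give 5 mice per group, of which 3 libraries were analysed here. Where the question was whether elesclomol acted differently with bortezomib than without it, elesclomol alone at 25 mg/kg (3 libraries) and saline by vein (PBS, 3 libraries) were used as well. Marrow was flushed from the femurs at limb paralysis, so the number of days on treatment and the time since the last dose, neither of which the labels give, can differ between mice. The samples hold tumour and mouse marrow together, and in such bulk samples fewer cells of a type and less RNA per cell cannot be told apart.

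Bortezomib blocks the chymotrypsin-like site of the proteasome, which is carried by PSMB5, and myeloma cells depend on the proteasome because they make large amounts of secreted antibody. Elesclomol carries copper into cells and releases it in mitochondria, where its reduction generates reactive oxygen. FDX1, a mitochondrial ferredoxin, reduces the elesclomol-bound copper and also takes part in attaching lipoic acid to enzymes such as pyruvate dehydrogenase, and copper bound to those lipoylated enzymes is linked to cell death.

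The count per library summed to 9227140, 6448673 and 7097281 in the combination libraries and to 8449749, 6805809 and 5458022 in the bortezomib libraries. Levels below are CPM, a gene's count scaled to library size by edgeR's TMM method, and changes are log2 fold changes, combination minus bortezomib, with the standard error (SE) of edgeR's quasi-likelihood fit. A gene passed where its Benjamini-Hochberg adjusted p over 13085 tested genes was below 0.05. Markers of myeloma and plasma cells summed to 16800 to 18600 CPM in the combination libraries and 17600 to 18500 CPM in the bortezomib libraries, so the labelled tumour was present in both. One library of each group stood apart. In combination 1 and bortezomib 1 a gene's deviation from its mean followed its GC content, with correlations across genes of 0.494 and 0.509. These correlations were -0.253 and 0.0839 in combination 2 and 3 and -0.31 and 0.0754 in bortezomib 2 and 3. In the PBS libraries they were -0.293, -0.348 and -0.328, each below those of the elesclomol libraries (-0.0164, -0.272 and 0.157).

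No gene passed the unpaired test between the combination and bortezomib. EdgeR called 0 of 13085 genes (0%), and 554 genes (4.23%) had an unadjusted p under 0.05, with 1 call by DESeq2 and 0 by limma voom. All 3 combination libraries lay above all 3 bortezomib libraries in 558 genes (4.26%) and below them in 514 (3.93%). The median log2 change over all tested genes was -0.01, with 47.3% of genes above 0 and a standard deviation of 0.291. When same-numbered libraries were treated as pairs (replicate block), 5 genes passed (0.0382%), 2 higher and 3 lower with the combination, and 1240 (9.48%) had an unadjusted p under 0.05. The combination was higher in every pair in 1946 genes (14.9%) and lower in every pair in 2369 (18.1%). The labels give no source for such pairs, and when the block was added to the 15-library fit 0 genes passed. The paired count was 89, 74 and 12 without pair 1, 2 and 3, and the unpaired count was 0 without combination 1 and bortezomib 1 together.

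The 3 genes that fell in the paired test encode a linker histone, a transcription factor and an inhibitor of cytokine signalling. H1FX (ENSG00000184897, chromosome 3) encodes a replication-independent H1 linker histone, which binds the DNA between nucleosomes. It stood at 280, 225 and 220 CPM in combination libraries 1 to 3, against 404, 344 and 400 CPM in bortezomib libraries 1 to 3. The groups did not overlap. H1FX fell by 0.66 on the log2 scale (SE 0.09, paired edgeR adjusted p = 0.0325), and the unpaired fit gave the same size of change with a wider SE of 0.16 (adjusted p = 0.999). The paired call was lost without pair 3. H1FX-AS1, the antisense gene beside it and outside the rule for named genes, was at 10.5, 9.47 and 10.9 CPM with the combination and 16.7, 16.9 and 17.4 CPM with bortezomib (paired adjusted p = 0.101, edgeR). The strand setting of the counting is not stated, so reads of H1FX and H1FX-AS1 may not be fully separated.

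KLF2 (ENSG00000127528, chromosome 19), a Krüppel-like zinc finger factor that cell signals switch on quickly, fell by a similar amount in each pair. The paired test selects genes with such even differences, so KLF2 is not evidence that the pairs are real. It was at 28.6, 37.7 and 60.8 CPM in combination 1 to 3 and at 47.2, 61.4 and 88.4 CPM in bortezomib 1 to 3. The groups overlapped, but each combination library lay below its same-numbered bortezomib library, by 0.72, 0.70 and 0.54 on the log2 scale. KLF2 fell by 0.64 (SE 0.09, paired edgeR adjusted p = 0.0325), whereas the unpaired SE was 0.38 (adjusted p = 0.999). SOCS3 (ENSG00000184557, chromosome 17), an inhibitor of cytokine signalling through JAK and STAT3, was near the lower limit of measurement and was singled out after its values were seen. It had 12, 3 and 5 counts in combination 1 to 3, against 76, 15 and 56 counts in bortezomib 1 to 3, or 1.33, 0.451 and 0.706 CPM against 8.74, 2.29 and 10.6 CPM. All 3 combination libraries lay below all 3 bortezomib libraries. SOCS3 fell by 3.03 on the log2 scale (SE 0.32, paired edgeR adjusted p = 0.00796), and the unpaired adjusted p was 0.999. Bone marrow myeloid cells also express SOCS3, and their part in its change was not tested. Granulocyte markers summed to 11.5, 33.8 and 17.7 CPM with the combination and 10.5, 22.2 and 34 CPM with bortezomib, and CAMP, 1 of the 12 granulocyte markers, was at 0 in all 6 libraries. With elesclomol alone SOCS3 had 42, 25 and 172 counts, against 1, 8 and 3 with PBS, a difference of the other sign (interaction -6.88, SE 1.20, adjusted p = 0.0729). In those libraries granulocyte markers summed to 15 to 144 CPM with elesclomol and 17.1 to 30.1 CPM with PBS, and macrophage and monocyte markers to 16 to 68.4 CPM and 15.7 to 31.9 CPM.

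The other 2 genes past the paired test rose and were both noncoding, and both were chosen after their values were seen. AC010719.1 (ENSG00000270933, chromosome 7), a long intergenic noncoding RNA, was at 24.3, 31 and 26.1 CPM with the combination and 13.2, 13.7 and 11.5 CPM with bortezomib. The groups did not overlap, and it rose by 1.07 (SE 0.12, paired edgeR adjusted p = 0.00958). It also had the smallest p of the unpaired test (adjusted p = 0.139), and it was the gene that DESeq2 called without pairing. The other was AC010970.1 (ENSG00000225840, chromosome Y), a processed pseudogene, a class whose reads can belong to the parent gene. It was at 381, 385 and 628 CPM with the combination and 200, 197 and 221 CPM with bortezomib, without overlap. It rose by 1.14 (SE 0.11, paired edgeR adjusted p = 0.00796). Where its reads come from was not tested. All 5 genes also passed with the block in DESeq2 and in limma voom and once GC content and gene length were corrected for. Among genes averaging 3 log2 CPM or more, AC010719.1 and AC010970.1 passed with the block, while KLF2 (adjusted p = 0.0761) and H1FX (adjusted p = 0.0869) did not, and SOCS3 was too low to be included.

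**Figure D1:**
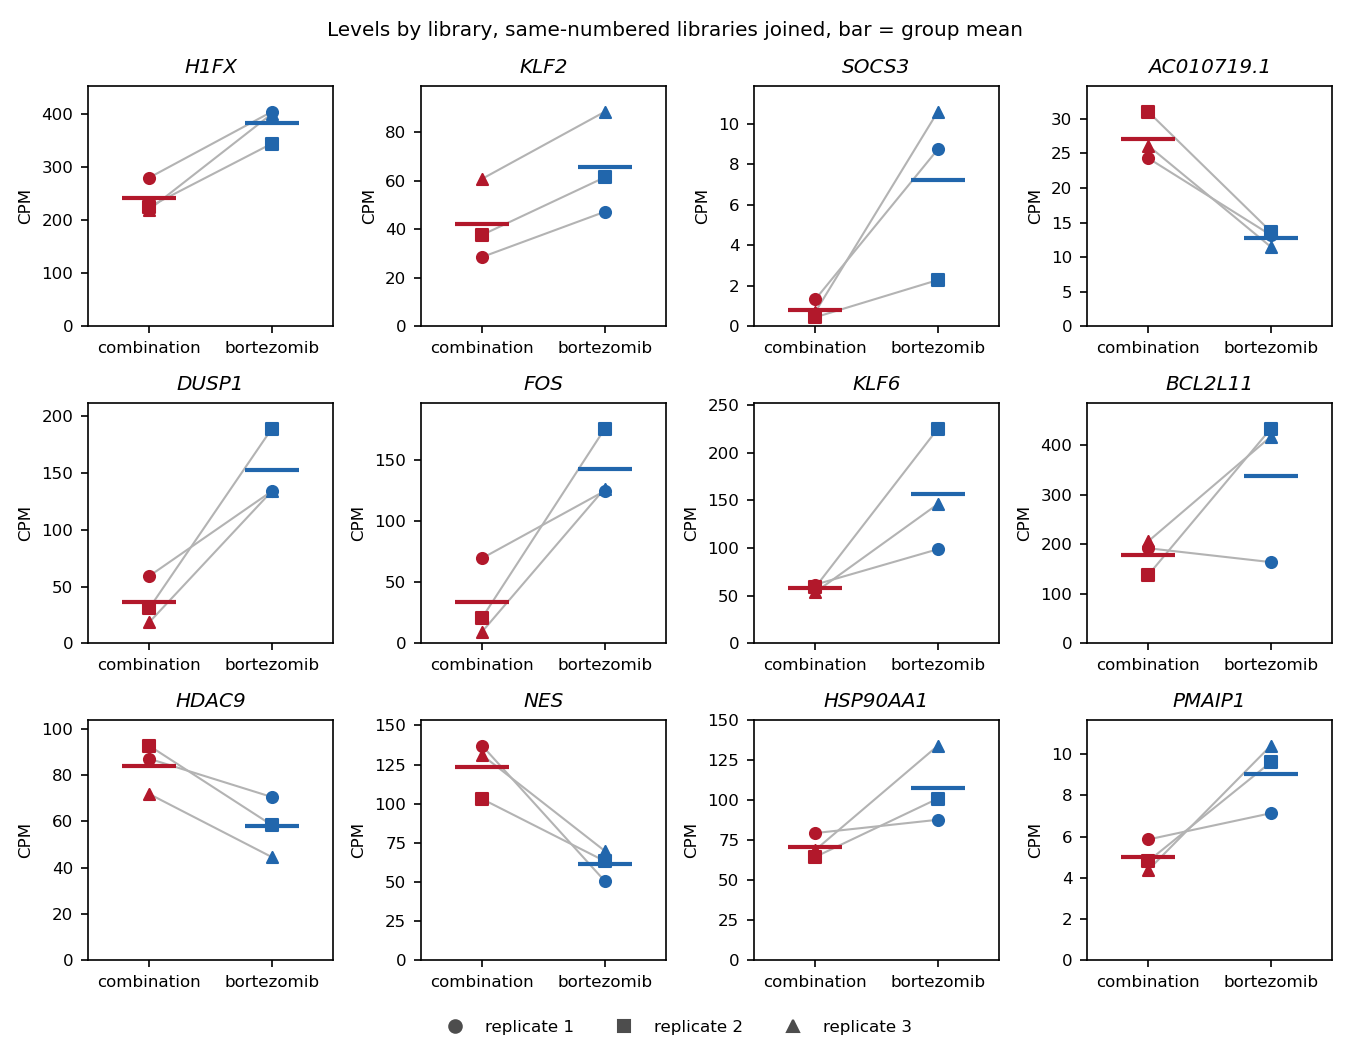
Levels of 12 genes in CPM (vertical axes, linear, from 0) in the 3 combination libraries (red, left) and the 3 bortezomib libraries (blue, right), with grey lines between same-numbered libraries and a bar at each group mean. The H1FX, SOCS3, DUSP1, FOS and KLF6 levels of the 2 groups do not overlap, whereas in KLF2 they overlap and the 3 lines run nearly parallel.

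The promoters of KLF2, H1FX and DUSP1, a gene described next, are given to show which known signal elements lie near the starts of genes that were lower with the combination. The sequences are from RefSeq on GRCh38.p14, while the counts were made on GRCh37. Each covers 250 bases before to 50 after the start on the gene's strand. The KLF2 window is chr19:16324576-16324875 on the plus strand, and capitals mark the 6 matches to the GC box GGGCGG, which Sp1 and Krüppel-like factors bind, on either strand. Some of these overlap. The H1FX window (named H1-10 in RefSeq) is chr3:129316237-129316536 on the minus strand, with the TATA sequence TATAAA in capitals. The DUSP1 window is chr5:172771146-172771445 on the minus strand, with the cyclic AMP response element TGACGTCA, the site of CREB and ATF factors, in capitals.
KLF2: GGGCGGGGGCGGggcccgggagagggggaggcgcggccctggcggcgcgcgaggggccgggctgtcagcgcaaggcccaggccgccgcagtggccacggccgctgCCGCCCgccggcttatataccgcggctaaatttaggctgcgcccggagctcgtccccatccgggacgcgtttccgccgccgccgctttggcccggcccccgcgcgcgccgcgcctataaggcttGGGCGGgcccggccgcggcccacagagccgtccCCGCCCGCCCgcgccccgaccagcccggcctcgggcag
H1FX: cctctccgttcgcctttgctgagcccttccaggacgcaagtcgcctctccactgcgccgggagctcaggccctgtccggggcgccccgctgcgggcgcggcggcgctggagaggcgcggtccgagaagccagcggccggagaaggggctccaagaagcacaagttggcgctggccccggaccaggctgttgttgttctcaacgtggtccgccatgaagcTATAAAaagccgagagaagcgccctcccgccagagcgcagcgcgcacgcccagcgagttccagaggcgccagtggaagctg
DUSP1: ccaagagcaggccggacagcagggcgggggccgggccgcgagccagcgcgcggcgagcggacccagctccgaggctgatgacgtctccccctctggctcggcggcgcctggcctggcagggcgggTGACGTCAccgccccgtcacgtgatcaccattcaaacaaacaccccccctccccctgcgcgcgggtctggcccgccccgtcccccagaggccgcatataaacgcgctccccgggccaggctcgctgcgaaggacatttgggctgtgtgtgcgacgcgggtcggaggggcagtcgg
Of 35116 promoter windows searched on both strands, 45% held GGGCGG, 11.5% TATAAA and 1.85% TGACGTCA. The DUSP1 window also held GGGCGG 4 times and TATAAA once. None of the windows of KLF2, H1FX, DUSP1 and SOCS3 held the STAT motif TTCNNNGAA (7.66% of all windows), the AP-1 motif TGANTCA (7.71%), the heat shock element (0.49%) or the CArG box of serum response factor (1.29%). A match is a run of letters and not a measured site, and gene counts do not show which start was used. The SOCS3 window is not printed here, and none of the searched motifs was found in it. Whether it covers the SOCS3 promoter was not tested, so its lack of matches does not show that SOCS3 has no STAT site. Among the immediate early genes described next, 15 of 19 had a window, of which 13 held GGGCGG, against 48.3% of 27305 genes. TATAAA was held by 4 of the 15 (14% of the 27305) and the CArG box by 2 (1.6%). The STAT motif and TGACGTCA were held by 1 each (9.38% and 2.25%). None of the 15 held the AP-1 motif or the heat shock element. The 27305 genes were not limited to those tested here, so these shares are a description.

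Immediate early genes are transcribed within minutes of a stimulus because they need no new protein, and they lay lowest of the 39 lists with at least 5 tested genes. Of 19 tested, 17 were below 0 with a median log2 change of -0.59, against 6893 of all 13085 tested genes below 0 and a median of -0.01. In 11 of the 19 the combination was lower in every pair (57.9% against 18.1% of all tested genes), and in 5 the groups did not overlap (26.3% against 3.93%). Being lower in every pair was about as common among ribosome biogenesis genes (59.1%) and 19S proteasome cap genes (55.6%). Of the early genes, none passed the unpaired test, and 1 of the 19, KLF2, passed the paired one. The lists were chosen with earlier results of these data known, so the list's rank and these shares are a description. Erythroid markers, of which 4 were tested, had a lower median of -0.68, and their part in these changes was not tested. FOS, a component of the AP-1 transcription factor, was at 69.9, 21.2 and 9.74 CPM with the combination and 125, 176 and 127 CPM with bortezomib. Its highest combination library lay below its lowest bortezomib library (-2.07, SE 0.75, adjusted p = 0.999). KLF6, a Krüppel-like factor of the same early class, was at 61.6, 58.8 and 53.6 CPM with the combination, close together, and at 98.7, 225 and 146 CPM with bortezomib (-1.43, SE 0.36). KLF4, a further Krüppel-like factor, was at 4.09, 1.05 and 2.82 CPM with the combination and 4.83, 12 and 5.29 CPM with bortezomib (-1.43, SE 0.47). NR4A2, a nuclear receptor, overlapped, with 4.09, 3.76 and 3.25 CPM against 3.57, 14.2 and 8.69 CPM (-1.22, SE 0.40).

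DUSP1, the phosphatase that switches off the stress kinases p38 and JNK and is itself an early gene, had the pattern of FOS. It was at 59.3, 31 and 18.6 CPM with the combination and 134, 189 and 134 CPM with bortezomib. The lowest bortezomib library was above the highest combination library, and its log2 change was -2.06 (SE 0.53, adjusted p = 0.999, and paired adjusted p = 0.489). The AP-1 partner JUN, chosen after its values were seen, was at 200, 88.1 and 57.6 CPM with the combination and 252, 233 and 246 CPM with bortezomib, again without overlap (-1.08, SE 0.42). In each of FOS, DUSP1 and JUN combination 1 was the highest combination library and combination 3 the lowest. Pair 1 differed least over the early genes, with medians of -0.05, -1.06 and -0.85 in pairs 1, 2 and 3. Leaving out 1 library at a time moved the median between -0.95 (without combination 1, where all 19 were below 0) and -0.45 (without combination 2, 15 of 19).

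**Figure D2:**
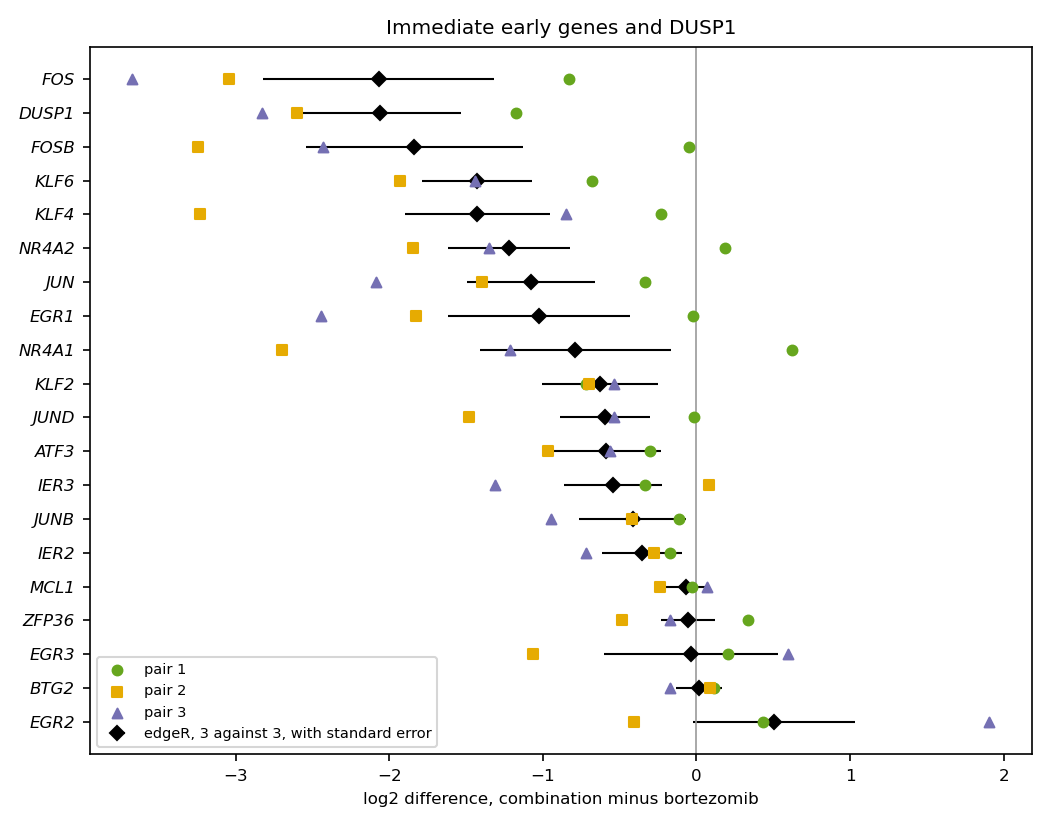
Log2 difference, combination minus bortezomib (horizontal axis), of the 19 tested immediate early genes and DUSP1, with the edgeR estimate and its standard error in black and the 3 same-numbered pairs as coloured symbols. Pair 1 (green circles) lies nearest 0 in FOS, DUSP1, KLF6 and JUN, where pairs 2 and 3 lie below -1.

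Feedback genes of the ERK pathway, which growth factor signalling induces and which then dampen it, lay on both sides of 0. Of 15 tested, 7 were above 0 and 8 below, with a median of -0.04. The changes ran from -2.06 for DUSP1, described above, to 0.54. SPRED1, a membrane-bound inhibitor of RAS to RAF signalling, was at 69.2, 77.7 and 87.4 CPM with the combination and 54.5, 59.1 and 47.4 CPM with bortezomib, without overlap (0.54, SE 0.15, adjusted p = 0.999). DUSP16, a phosphatase of JNK, was at 10.5, 8.57 and 10.9 CPM against 13.3, 12.7 and 18.5 CPM (-0.56, SE 0.21). ETV5, an ETS factor that ERK signalling induces, was higher in every pair but overlapped (0.44, SE 0.20).

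Apart from the early genes, the smallest p-values of the unpaired test, none of which passed, included genes of mixed function. ATP8A2, a flippase that moves phosphatidylserine across the membrane, was at 19.4, 14.6 and 20.9 CPM with the combination and 10.2, 11.1 and 10.4 CPM with bortezomib (0.79, SE 0.17). LAX1, an adaptor that dampens antigen receptor signalling in lymphocytes, was at 142, 161 and 139 CPM with the combination and 115, 114 and 106 CPM with bortezomib (0.40, SE 0.10). SMIM14, a small membrane protein, was at 26.9, 28.6 and 31.3 CPM against 18.1, 20 and 14.7 CPM (0.71, SE 0.19). Each of these was higher in all 3 combination libraries than in any bortezomib library. Lower without overlap were TPP1, a lysosomal peptidase (16.7, 22.1 and 21.7 CPM with the combination, 28.2, 26.2 and 26.4 CPM with bortezomib; -0.42, SE 0.11), and CDH2, the adhesion protein N-cadherin (30.9, 30.7 and 27 CPM with the combination, 39.1, 35 and 40.8 CPM with bortezomib; -0.37, SE 0.10). All had an unpaired adjusted p of 0.999.

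Pairing brought further genes close to the threshold. NES, which encodes the intermediate filament protein nestin, was at 137, 103 and 131 CPM with the combination and 50.7, 63.4 and 69.9 CPM with bortezomib. The groups were far apart (1.03, paired SE 0.13, edgeR adjusted p = 0.052 with the block). CX3CR1, the fractalkine receptor, was at 48.5, 62.8 and 72.8 CPM against 36.5, 35.2 and 45.7 CPM (0.64, paired SE 0.10, adjusted p = 0.052 by edgeR). FASN, the fatty acid synthase, was at 170, 146 and 192 CPM with the combination and 249, 202 and 257 CPM with bortezomib (-0.47, paired SE 0.08, adjusted p = 0.0691 by edgeR). FCRLA and CPNE5 were higher with the combination in every pair, and ITGB8 was lower in every pair with overlapping groups. FCRLA is an Fc receptor-like protein of B cells, CPNE5 a calcium-dependent membrane-binding protein and ITGB8 an integrin that activates TGF-beta. Once GC content and gene length were corrected for, CX3CR1 (adjusted p = 0.0411) and FASN (adjusted p = 0.0462) passed with the block, among 12 genes.

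Genes of the BCL2 family, which decides between survival and apoptosis, lay on both sides of 0, and none passed either test. BCL2L11, the gene of the death-promoting BH3-only protein BIM, was at 192, 138 and 206 CPM with the combination and 164, 433 and 417 CPM with bortezomib. The groups overlapped because bortezomib 1 stood with the combination libraries, and pair 1 differed in sign from pairs 2 and 3 (-0.92, SE 0.30, adjusted p = 0.999). With elesclomol alone BCL2L11 was at 432, 404 and 350 CPM, against 183, 154 and 124 CPM with PBS (1.37, SE 0.30, adjusted p = 0.202), and the difference between its changes with and without bortezomib was -2.29 (SE 0.42, interaction adjusted p = 0.107). PMAIP1, which encodes NOXA, the BH3-only partner of MCL1, was at 5.86, 4.81 and 4.38 CPM with the combination and 7.13, 9.6 and 10.4 CPM with bortezomib, without overlap (-0.83, SE 0.23). BBC3, which encodes the BH3-only protein PUMA and was chosen after its values were seen, was at 8.51, 5.86 and 6.63 CPM with the combination and 7.94, 4.11 and 4.53 CPM with bortezomib, higher in every pair with overlap (0.32, SE 0.27). Over the 7 tested BH3-only genes 3 were above 0 and 4 below, with a median of -0.01. Among survival proteins, BCL2L1 (BCL-XL) was at 111, 109 and 98.2 CPM with the combination and 152, 117 and 122 CPM with bortezomib (-0.30, SE 0.13), and 5 of 7 members of that list, which also holds BAX and BAK1, were above 0. Of 14 tested p53 targets 11 were above 0 (median 0.05, and 7 with a median of 0.02 without combination 3), and 0 genes of these 3 lists passed either test.

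Heat shock genes, which cells raise when unfolded protein builds up in the cytosol, were mostly a little lower. Of 23 tested, 21 were below 0 (median -0.15), 10 were lower in every pair (43.5% against 18.1% of all tested genes) and 5 did not overlap (21.7% against 3.93%). HSP90AA1, the inducible HSP90 chaperone, was at 79.5, 64.6 and 68.9 CPM with the combination and 87.8, 101 and 134 CPM with bortezomib (-0.60, SE 0.15, adjusted p = 0.999). HSPD1, the mitochondrial chaperonin, was at 316, 303 and 321 CPM with the combination and 364, 386 and 388 CPM with bortezomib (-0.28, SE 0.08). The cochaperones FKBP4 (-0.38, SE 0.12) and DNAJA1 (-0.29, SE 0.11) did not overlap either. The genes that heat shock induces most sharply varied widely between libraries of a group: DNAJB1 was at 123, 41 and 62.4 CPM with the combination and 117, 68.1 and 52.3 CPM with bortezomib (-0.07, SE 0.37), and HSPA1B at 122, 21.6 and 46.6 CPM against 76.7, 49.1 and 42.9 CPM (0.17, SE 0.57). HSPA1A and HSPA1B are nearly identical, so reads can be split between them and the HSPA1B level is uncertain. The list's median lay between -0.29 (without combination 1) and -0.05 (without bortezomib 1, 15 of 23 below 0), and 0 of its genes passed.

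Other responses to a blocked proteasome had medians nearer 0. The endoplasmic reticulum's unfolded protein response had 12 of 20 genes above 0 (median 0.03), and XBP1, its main transcription factor in plasma cells, was at 2231, 2181 and 2293 CPM with the combination and 2491, 2228 and 2609 CPM with bortezomib (-0.13, SE 0.10). Of 20 genes of the integrated stress response 16 were below 0 (median -0.10, between -0.27 without combination 1 and -0.02 with 11 below 0 without combination 2), among them the phosphatase subunit PPP1R15A (42.5, 20.1 and 20.5 CPM with the combination, 43, 47.5 and 40.2 CPM with bortezomib; -0.64, SE 0.27). DDIT3, the stress factor CHOP, was at 8.51, 6.76 and 6.07 CPM against 6.56, 6.55 and 6.04 CPM (0.16, SE 0.20), and ATF3 was lower in every pair with overlap (-0.59, SE 0.36). The 19S cap had 16 of 18 genes below 0 (median -0.09) and the 20S core 10 of 13 (median -0.04), but without combination 2 these counts were 10 and 4. PSMB5, the subunit that bortezomib binds, was at 31.6, 23 and 28.6 CPM with the combination and 30, 23.2 and 25.7 CPM with bortezomib (0.08, SE 0.18). In none of these 4 lists did a gene pass either test.

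Genes of copper handling and of the FDX1 pathway, the textbook targets of elesclomol, showed no gene past either test. Of 13 tested copper genes 11 were below 0 (7 without bortezomib 1), and the median was -0.03. The copper importer SLC31A1 was at 65.3, 41.9 and 54.8 CPM with the combination and 61.1, 49.5 and 52.3 CPM with bortezomib (-0.01, SE 0.13), and the exporter ATP7A at 25.6, 33.1 and 30.9 CPM against 25, 34.7 and 30.4 CPM (-0.01, SE 0.13). The exporter ATP7B, with 2 to 12 counts in the combination libraries and 4 to 7 in the bortezomib libraries, was too low to test. Metallothioneins, copper-binding proteins that metal induces, were too low as well: MT1X had 11, 5 and 9 counts with the combination against 5, 3 and 4 with bortezomib, and MT2A 3, 1 and 1 against 0, 1 and 2. FDX1 itself was at 23.3, 23.1 and 28.2 CPM with the combination and 25.9, 22.6 and 29.5 CPM with bortezomib (-0.06, SE 0.12). The lipoyl synthase LIAS was at 7.62, 9.02 and 6.35 CPM against 9.2, 8.99 and 7.18 CPM (-0.15, SE 0.17). DLAT, the lipoylated subunit of pyruvate dehydrogenase, was at 95.2, 91.8 and 98.5 CPM with the combination and 105, 104 and 113 CPM with bortezomib, without overlap (-0.17, SE 0.08). Of the 12 tested genes of the list 10 were below 0 (median -0.11, between -0.17 without bortezomib 2 and -0.06 with 7 below 0 without bortezomib 3).

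Most lists of oxidative stress and mitochondrial genes had medians a little below 0. Of 17 tested targets of the antioxidant regulator NRF2, 16 were below 0 (median -0.09). That median lay between -0.20 (without combination 1) and -0.02 (without bortezomib 1). HMOX1, heme oxygenase, was at 1.1, 0.752 and 1.41 CPM with the combination and 2.53, 0.609 and 3.4 CPM with bortezomib (-0.97, SE 0.54). It was near the lower limit of measurement, with 10, 5 and 10 counts against 22, 4 and 18, and combination 2 lay above bortezomib 2. Of 16 genes of iron-sulfur cluster assembly 9 were above 0 (median 0.03), of 17 citric acid cycle genes 16 were below 0 (median -0.09, and 11 with a median of -0.02 without bortezomib 1), and of 38 complex I genes of the nucleus 27 were below 0 (median -0.05, and 16 without combination 2). Of 15 genes of mitochondrial DNA 14 were below 0 (median -0.27), but pair 1 went the other way, with medians of 0.18, -0.38 and -0.54 in pairs 1 to 3. MT-ND4, a complex I subunit, was at 958, 1335 and 924 CPM with the combination and 984, 2003 and 1633 CPM with bortezomib (-0.52, SE 0.26). The share of counts in genes of mitochondrial DNA, most of it ribosomal RNA, was 39.5, 37.1 and 36.8% with the combination and 35, 39.1 and 37.7% with bortezomib (two-sided exact permutation p = 0.9, where 0.1 is the smallest that 3 against 3 allows).

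Among genes of growth and immune recognition, genes of antigen presentation by MHC class I had log2 changes below 0. All 14 tested genes were (median -0.25), and 7 were lower in every pair (50% against 18.1% of all tested genes), but the groups did not overlap in 0 of 14. The median was -0.29, -0.04 and -0.47 in pairs 1 to 3 and lay between -0.44 (without bortezomib 2) and -0.18 (without bortezomib 1, where 12 were below 0). HLA-C was at 176, 131 and 143 CPM with the combination and 243, 144 and 221 CPM with bortezomib (-0.43, SE 0.18), and the peptide transporter TAP1 at 93.7, 67.5 and 70 CPM against 137, 77.2 and 106 CPM (-0.47, SE 0.23). Both were lower in every pair and overlapped, since bortezomib 2 was low. Of 19 tested interferon-stimulated genes 14 were below 0 (median -0.29), with a median of 0.04 in pair 2, -0.16 without combination 3 and -0.04 over the 10 genes averaging 3 log2 CPM or more. Of 23 genes of DNA replication 21 were below 0 (median -0.15), with a median of -0.03 in pair 2, -0.25 without bortezomib 2 and -0.04 without bortezomib 1, where 17 were below 0. Among them was RRM2, a subunit of ribonucleotide reductase, at 276, 244 and 211 CPM with the combination and 372, 248 and 394 CPM with bortezomib (-0.47, SE 0.17). All 14 replication-dependent histones were below 0 (median -0.19), yet the median was 0.13 without bortezomib 1. Of 22 genes of ribosome biogenesis 20 were below 0 (median -0.14), while MYC itself was at 653, 527 and 610 CPM with the combination and 639, 451 and 530 CPM with bortezomib (0.14, SE 0.13). CCND2, the D-type cyclin, was at 482, 388 and 401 CPM against 562, 524 and 560 CPM, without overlap (-0.37, SE 0.14), and IRF4, on which myeloma cells depend, at 815, 986 and 848 CPM against 860, 664 and 744 CPM (0.22, SE 0.11). None of these passed either test.

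**Figure D3:**
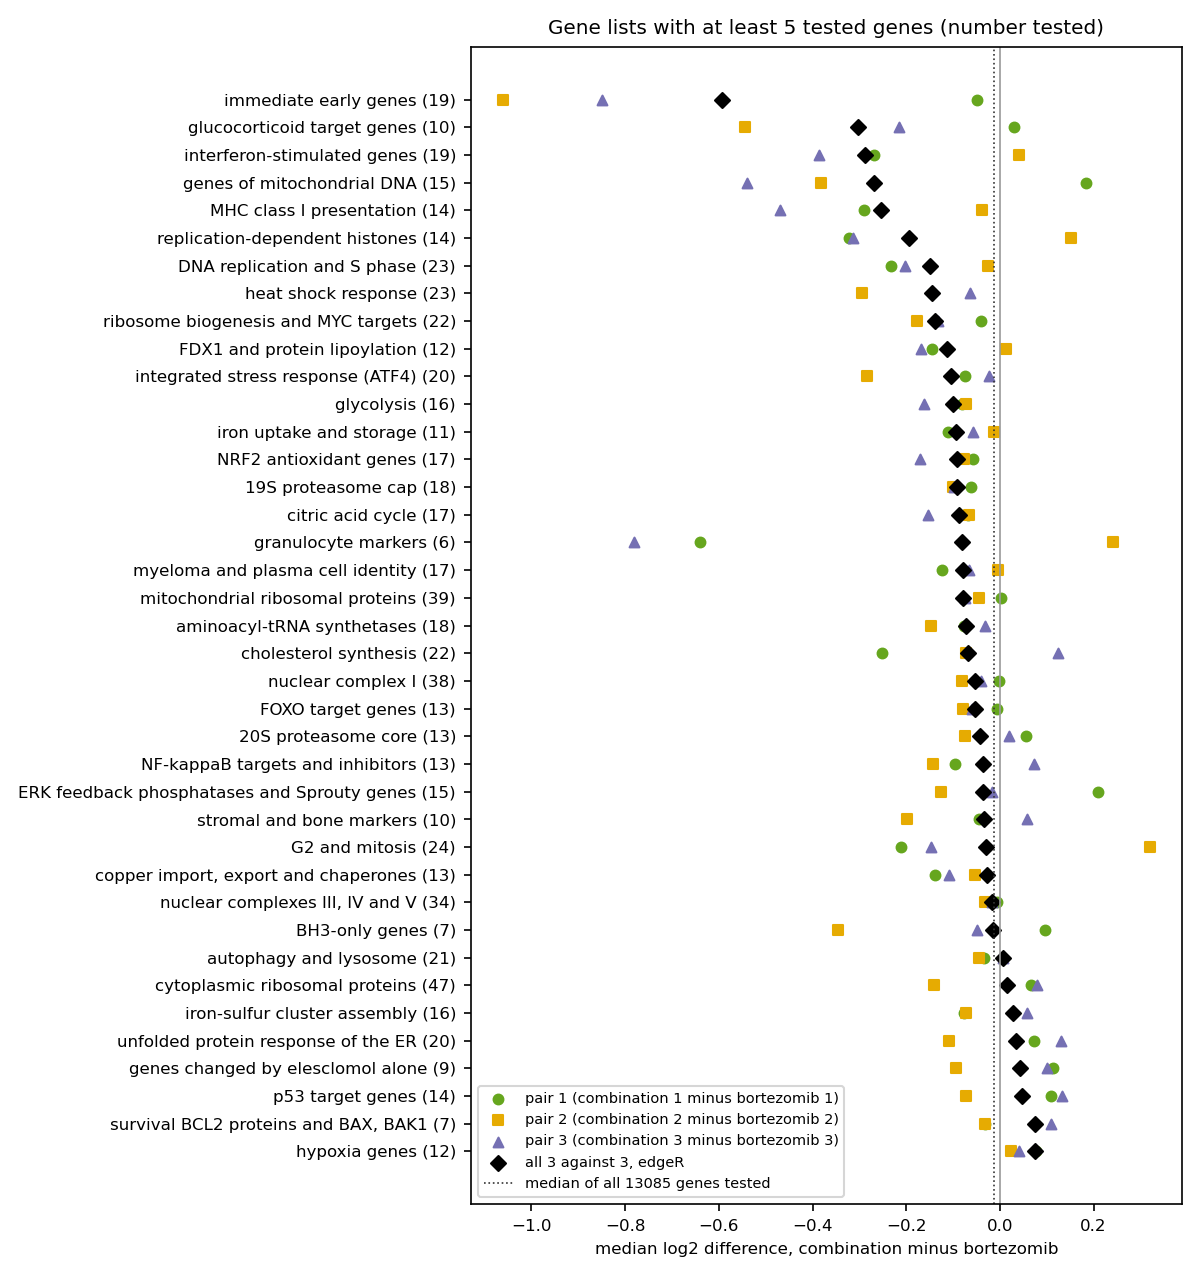
Median log2 difference, combination minus bortezomib (horizontal axis), of the 39 gene lists with at least 5 tested genes, ordered by the edgeR median (black diamonds), with the medians of the 3 same-numbered pairs as coloured symbols and the median of all tested genes as a dotted line. Immediate early genes lie furthest left at -0.59, and 17 lists are below 0 in all 3 pairs. The lists were chosen with earlier results of these data known.

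Over the 39 lists with at least 5 tested genes the median was below 0 in 31 and above 0 in 8. No list held a gene past the unpaired test. Some lists share genes, such as BBC3 among BH3-only and p53 target genes, so the 39 are not separate observations. Glucocorticoid target genes lay lowest after the early genes, with 9 of 10 below 0 (median -0.30). Their median was 0.03, -0.54 and -0.22 in pairs 1 to 3. In 17 lists the median was below 0 in all 3 pairs and in 1, the hypoxia genes, above 0 in all 3. ANKRD37, a target of the hypoxia factor HIF1, was at 138, 163 and 143 CPM with the combination and 123, 109 and 87.8 CPM with bortezomib, without overlap (0.47, SE 0.15).

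Of the 9 genes past the test between elesclomol and PBS, 0 passed on top of bortezomib, as did 0 of all 13085 genes. The log2 changes of the 9 on top of bortezomib lay between -0.20 and 0.53. The 9 genes were chosen by the difference between the elesclomol and PBS libraries, so their change there is a description and can be overstated. The combination and bortezomib libraries entered through the gene filter, normalization and spread estimate of the shared fit. The choice was thus not independent of them. DUSP2, a nuclear MAP kinase phosphatase, was at 20.1, 11.1 and 11.2 CPM with the combination and 16.2, 11.9 and 10.4 CPM with bortezomib (0.14, SE 0.23), and at 6.25, 5.32 and 5.24 CPM with elesclomol and 21.9, 24.5 and 19.4 CPM with PBS (-1.97, SE 0.25). The means of both bortezomib groups lay between those of elesclomol and PBS. FBXO32, the ubiquitin ligase subunit atrogin-1, was at 9.94, 12.6 and 13.8 CPM with the combination and 10, 15.5 and 16.6 CPM with bortezomib (-0.20, SE 0.24), and at 35.5, 25.6 and 25 CPM with elesclomol and 13.3, 7.16 and 7.44 CPM with PBS (1.65, SE 0.24). NXPE3 was at 564, 540 and 566 CPM with the combination and 482, 564 and 575 CPM with bortezomib (0.04, SE 0.09), and at 672, 738 and 674 CPM with elesclomol and 429, 389 and 399 CPM with PBS (0.78, SE 0.09). Over the other 6 genes the change on top of bortezomib ran from -0.20 for BASP1, a membrane signalling protein, to 0.53 for HDAC9.

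HDAC9, a class IIa histone deacetylase, was the 1 gene of 13085 (0.00764%) whose change with elesclomol differed with bortezomib, in a test of the interaction in which 1150 genes (8.79%) had an unadjusted p under 0.05. It was at 87, 92.6 and 71.8 CPM with the combination and 70.5, 58.4 and 44.6 CPM with bortezomib (0.53, SE 0.16), and at 44, 46.5 and 40.3 CPM with elesclomol and 114, 85.3 and 98.7 CPM with PBS (-1.19, SE 0.16). In both settings the groups did not overlap, and the signs were opposite. The difference between both changes was 1.72 (SE 0.23, edgeR adjusted p = 0.0229). It stayed between 1.57 and 1.89 when any 1 of the 12 libraries was left out, but the adjusted p lay between 0.00294 and 0.108 and missed the threshold in 8 of the 12. With GC content and gene length corrected for, the adjusted p was 0.0816. The count of genes past the interaction test ran from 0 to 27 over the same libraries, with 27 without bortezomib 1. Erythroid markers summed to 69.5 to 589 CPM with elesclomol and 51.8 to 73.8 CPM with PBS, and their part in the interaction was not tested. The other 8 genes had interaction adjusted p-values of 0.0655 to 0.0657, which rest in part on the change they were chosen by. PDZRN4, a PDZ domain ubiquitin ligase, had the next smallest p (2.06, SE 0.32, edgeR adjusted p = 0.0631). It was at 4.97, 8.27 and 7.2 CPM with the combination and 3.68, 3.96 and 3.97 CPM with bortezomib, and at 4.42, 4.62 and 3.9 CPM with elesclomol and 10.6, 9.14 and 11.2 CPM with PBS.

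**Figure D4:**
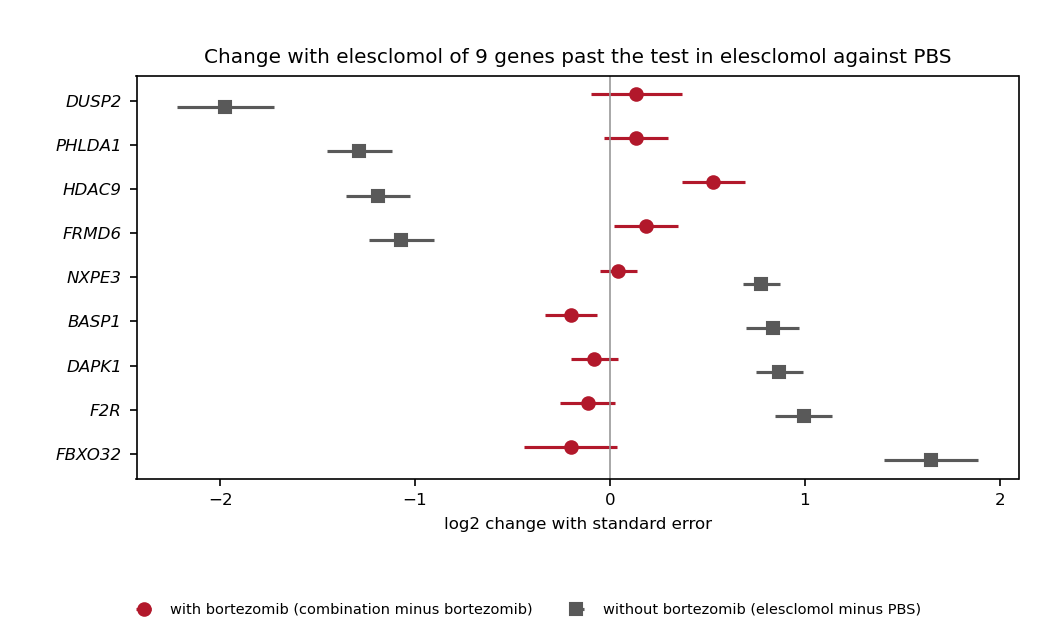
Log2 change with elesclomol and its standard error (horizontal axis) for the 9 genes past the test between elesclomol and PBS, with bortezomib (red circles, combination minus bortezomib) and without it (grey squares, elesclomol minus PBS). The red circles lie between -0.20 and 0.53 while the grey squares run from -1.97 to 1.65.

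Across all tested genes the change with elesclomol on top of bortezomib and the change with elesclomol alone were weakly opposed. The correlation across 13085 genes was -0.254 (Pearson) and -0.196 (Spearman), and 43.2% of genes had the same sign. The 4 groups behind it share no library, but genes are not independent replicates. The part of GC content, whose correlations differed between elesclomol and PBS libraries, was not tested. Early genes were below 0 in both settings, with medians of -0.59 with bortezomib and -0.95 without it. DNA replication genes had medians of -0.15 with bortezomib and 0.19 without it.

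Markers of mouse marrow cells, whose reads can align to human genes, were low in both groups. Reads were aligned to the human genome, and the handling of mouse reads is not given. Marker sums, here and above, therefore do not measure how much mouse marrow was present. Erythroid markers summed to 33, 39.2 and 69.3 CPM with the combination and 67.6, 74 and 78.9 CPM with bortezomib (two-sided exact permutation p = 0.2), with HBA1, AHSP and GATA1 at 0 in all 6 libraries. All 4 erythroid markers that could be tested were below 0, with a median of -0.68, and 3 of them were lower in every pair. Macrophage and monocyte markers summed to 17.8 to 23.6 CPM and 22.4 to 27.8 CPM, and stromal and bone markers to 113 to 161 CPM and 126 to 158 CPM. The megakaryocyte markers PF4, GP1BA and GP9 were at 0 in all 6 libraries. The part of these cells in the changes above was not tested.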

How the data were processed

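Total RNA was extracted with Trizol and libraries were made with a stranded, ribosomal RNA depleted kit, per the labels' protocols. The deposited values are raw read counts per gene, aligned to GRCh37 with STAR 2.5.4b and counted with featureCounts 1.6.1 per the submitters' processing notes. The strand setting, annotation release and handling of mouse reads are not given in these sources. GENCODE 29 named 52338 of 57773 identifiers, and the 5435 others held 1.07% of counts.

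Genes were kept by filterByExpr (minimum count 10) and tested with edgeR 4.0.16 (R 4.3.3, robust quasi-likelihood, TMM) in 1 fit of 15 libraries with a common coefficient of variation of 0.171. The interaction compared combination minus bortezomib with elesclomol minus PBS. The code was tested on simulated data.

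Same-numbered libraries deviated together from their group means (correlations 0.655, 0.523 and 0.118, and 0.486, 0.347 and 0.078 after a GC and length correction), so a 6-library fit with the replicate number as a block is given beside the unpaired fit. This pairing comes from the data and not from the labels. Combination 3 with bortezomib 2 reached 0.222, above the third pair. Replicates differed by more than sampling noise, with chi-square per degree of freedom 2.17 to 3.04 among PBS libraries and 5.38 to 26 within the treated groups. The shared fit estimates a gene's spread jointly over these unequal groups. Nothing says how the 3 samples of a group relate to the mice, so p-values measure the spread between these samples, which may be technical.

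Members and gene lists (45 lists, 768 genes, 685 tested) were chosen with earlier results of these data known. Named genes were the 10 smallest unpaired p at 3 log2 CPM or more in the higher group, the same for the paired fit, up to 4 genes with the smallest p per list, the 9 elesclomol genes, 20 fixed genes and the smallest interaction p. Clone names, pseudogenes and antisense genes were outside the rule. Alternatives used DESeq2 1.42.0 and limma 3.58.1. Permutation tests used Python 3.11.15. The delayed combination group entered the shared fit only.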

Additional observations from a re-analysis of the deposited data

Results flagged for a closer look

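The change of HDAC9 with elesclomol differed with bortezomib by 1.72 on the log2 scale (edgeR interaction adjusted p = 0.0229). It was higher in all 3 combination libraries than in all 3 bortezomib libraries and lower in all 3 elesclomol libraries than in all 3 PBS libraries. The cause was not tested.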

How the results depend on the processing

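The unpaired count of 0 genes was also 0 with limma voom, DESeq2 size factors, genes averaging 3 log2 CPM or more, no mitochondrial genes, only the 6 libraries, the GC and length correction, the block inside the 15-library fit, and without both libraries numbered 1. It was 0 without any 1 of the 6 libraries, 1 with DESeq2, 14 with no filter, 5 with the replicate block in 6 libraries and 12 with that block and the GC and length correction.

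The paired count of 5 was tried with settings added after seeing the data. It was 15 with DESeq2, 10 with limma voom, 207 with no filter, 2 with genes averaging 3 log2 CPM or more, 10 without mitochondrial genes, 12 with the GC and length correction, 5 with DESeq2 size factors and 0 inside the 15-library fit, each with the replicate block. It ran from 12 to 89 when 1 pair was left out, where H1FX was lost without pair 3 and the other 4 genes passed each time. Leaving out a pair leaves few libraries to estimate the spread, and the count rose with less data. Passing there therefore does not show that a call is stable.

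The interaction count of 1 was 32 with DESeq2, 127 with no filter, 5 with only the 12 libraries and 2 with the replicate block in all 15 libraries. It was 1 with limma voom, DESeq2 size factors, genes averaging 3 log2 CPM or more and no mitochondrial genes, and 1 after the GC and length correction, where the gene was no longer HDAC9. It ran from 0 to 27 over libraries left out, with 27 without bortezomib 1. The cause of these differences was not tested. Of 202 named genes in the unpaired test, 32 had the other sign under some setting, in 67 of 3594 values, and none of these 67 passed the threshold. Of the 3594, 29 passed the threshold: 12 with the block and GC and length correction, 11 with no filter, 5 with the block and 1 with DESeq2. Depth limited SOCS3, with 3 to 76 counts in the 6 libraries, and left ATP7B and the metallothioneins untested.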
